A study of Mus musculus with 20 samples.

Results

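The replication-dependent histone genes are the 68 of 22556 genes in the table whose names begin with Hist1h, Hist2h, Hist3h or Hist4h. The digit names the chromosomal cluster and the letters after it the histone type. There were 6 genes for the linker histone H1, 19 for H2A, 18 for H2B, 12 for H3 and 13 for H4. By name 55 belong to the Hist1 cluster, 10 to Hist2, 2 to Hist3 and 1 to Hist4. Hist1h2al is a processed pseudogene in GENCODE M21 and lies at chr13:51202727-51203065, apart from the other Hist1 genes. All cells were E14-WT, a wild-type mouse embryonic stem cell line kept in serum with LIF, and were treated with DRB at 100 µM for 2 h or 5 h, with triptolide at 10 µM for 1 h or 2 h, or with no drug. A pulse of 4-thiouridine, 150 µM for 10 min, marked new RNA, whose fragments were captured. The 20 samples make 10 groups of 2 replicates, 1 labelled and 1 unlabelled group for each condition. In the deposited table each condition has 1 column, with negative values set to 0, so no value has a replicate error and no test was possible.

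Replication-dependent histone genes supply the proteins that package newly copied DNA and are read mainly in S phase. Most have no introns, and their mRNAs end in a conserved stem-loop, bound by SLBP, in place of a poly(A) tail. NPAT, a target of cyclin E and Cdk2, drives them from histone locus bodies that form at the gene clusters. DRB inhibits the kinase of P-TEFb, which releases paused RNA polymerase II into elongation, and triptolide acts on the XPB subunit of TFIIH and blocks initiation.

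The sequences below are the start-site regions of the genes whose values the results turn on, each 150 bases upstream of the RefSeq start on GRCm38.p6, written along the gene's strand. Capitals mark, on either strand, the CCAAT motif, the TATA motifs TATAAA and the TATAA within it, the octamer motif ATTTGCAT and the H1 box AAACACA. The first pair are the H1 genes with the most signal. The region of Hist1h2bk also holds part of the start-site region of its divergent neighbour Hist1h2ah, Hist1h3d is the H3 gene with the most signal, and Hist1h4b and Hist1h4i are the H4 genes that stood highest without drug and under triptolide.
Hist1h1b: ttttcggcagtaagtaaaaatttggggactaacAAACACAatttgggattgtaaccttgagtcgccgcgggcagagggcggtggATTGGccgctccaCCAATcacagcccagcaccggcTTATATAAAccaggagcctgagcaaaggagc
Hist1h1a: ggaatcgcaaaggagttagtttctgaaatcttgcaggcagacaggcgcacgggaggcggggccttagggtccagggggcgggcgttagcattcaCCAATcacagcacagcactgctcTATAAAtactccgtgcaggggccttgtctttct
Hist1h2bk: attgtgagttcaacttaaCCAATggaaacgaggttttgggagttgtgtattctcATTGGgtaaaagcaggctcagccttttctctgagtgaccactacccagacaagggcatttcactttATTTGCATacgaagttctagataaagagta
Hist1h3d: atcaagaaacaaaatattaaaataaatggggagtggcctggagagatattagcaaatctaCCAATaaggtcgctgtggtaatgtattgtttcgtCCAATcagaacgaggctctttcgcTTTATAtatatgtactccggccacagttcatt
Hist1h4b: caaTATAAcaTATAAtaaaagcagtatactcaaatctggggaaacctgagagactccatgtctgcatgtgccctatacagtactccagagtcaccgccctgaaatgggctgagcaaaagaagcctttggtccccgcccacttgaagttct
Hist1h4i: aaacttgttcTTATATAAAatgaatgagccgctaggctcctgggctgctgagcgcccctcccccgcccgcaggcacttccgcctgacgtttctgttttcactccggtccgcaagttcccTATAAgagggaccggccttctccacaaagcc
In order, the regions lie at chr13:21780626-21780775 (minus strand), chr13:23763518-23763667 (plus strand), chr13:22035671-22035820 (plus strand), chr13:23575613-23575762 (plus strand), chr13:23756787-23756936 (plus strand) and chr13:22041363-22041512 (minus strand). Windows of 250 bases before to 50 after the start were found for 60 of the 68 genes. CCAAT was present in 85% of these windows, beside 37.4% of 32817 RefSeq promoters, and in all 6 H1, 16 H2A, 16 H2B and 10 H3 windows but in 3 of 12 H4 windows. TATAA was in 81.7% beside 24.9%, and TATAAA in 56.7% beside 13.6%. The octamer ATTTGCAT was in 7 of 16 H2A and 7 of 16 H2B windows and in no H1, H3 or H4 window, which makes 23.3% beside 1.74%. Windows of divergent H2A and H2B genes overlap, so the same site can count for both genes, as in Hist1h2ae and Hist1h2bg. These motif counts are therefore not independent between such genes. The H1 box AAACACA was in 5 of 6 H1 windows and in 15% of all histone windows beside 7.19%. A match describes these letters and shows no bound factor.

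The stem-loop sequence was searched for in the last 200 bases of each GENCODE M21 transcript, and 28 of 68 histone genes held it, beside 42 of 141767 transcripts, or 0.0296%. A missing match says only that these letters are not in this window. These examples show the more frequent cores and that of Hist1h4b, with the 16-base core in capitals.
Hist1h2ab: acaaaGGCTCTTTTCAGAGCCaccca
Hist1h2bk: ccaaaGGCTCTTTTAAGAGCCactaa
Hist1h4f: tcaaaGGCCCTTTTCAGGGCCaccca
Hist1h4b: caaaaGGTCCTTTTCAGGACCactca
The first core was in 16 genes, of which 8 encode H2A, 6 H2B and 2 H3. The core of Hist1h2bk was in 4 genes, of which 1 encodes H1, 2 H2B and 1 H3, and that of Hist1h4f in 4 genes that all encode H4. Hist1h4b had a core found in no other member.

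Without drug, histone genes stood among the highest genes of the table in reads per kilobase. Positions are those of GENCODE M21 on GRCm38. Hist1h1b (chr13:21779883-21780625) was at 309 reads per kb and Hist1h1a (chr13:23763666-23764406) at 275, ranks 1 and 2 of all genes, and Hist1h4b (chr13:23757013-23757409) at 145, rank 15. Over the genes with signal, the median of a type was 79.2 reads per kb for H1, 43.0 for H2A, 19.4 for H2B, 25.2 for H3 and 35.9 for H4, beside 3.44 over the 8773 genes that passed a filter of more than 1 read per kb in at least 1 condition. Within each type the genes spanned a wide range, and the lowest H2A gene with signal, Hist2h2ac, was at 13.5 while the highest, Hist1h2ab, was at 127. Since a labelled culture is a bulk sample, fewer cells in S phase and less new RNA per cell cannot be told apart.

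Of the 68 genes, 61 had signal in at least 1 condition, and all 61 passed the filter. The other 7 (Hist2h2aa1, Hist2h2aa2, Hist1h2ao, Hist1h2ap, Hist1h2bq, Hist1h2br and Hist1h4m) were listed at 0 in all 5 columns. These 7 share most of their sequence with another histone gene. A median of 93.4% of their 30-base words occurred in another member (89.6% to 100%), beside 53.4% (0 to 94.2%) in the 61 genes with signal. How reads that map to several genes were counted is not given in the sources used here, so values of near-identical copies are uncertain, and 33 of the 61 genes shared more than 50% of their 30-base words. The counted length of each gene was recovered from the steps between its values, which gave net read numbers. Spans of the gene and its transcripts in GENCODE M21 and of its RefSeq entry were compared with the step. In 30 genes such a span was a multiple of the step and was taken as the length. In 23 the step lay within 10% of such a span and was used. In 8, which include Hist1h4i, Hist1h2bh, Hist1h2ai and Hist1h1d, the step alone gave the length. A length can differ from the GENCODE M21 gene span, as in Hist1h1e, with 747 bases. For the 8 genes set by the step alone the true length could be a multiple of the one used. For the others it rests on the span chosen. Another length would change the net reads of a gene and the widths of its intervals but not its ratios. The median length was 530 bases (311 to 37382), and 45 genes were under 1000 bases.

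As deposited, histone values with DRB for 2 h lay near those without drug, while most genes were lower. They had 2141 net reads with DRB for 2 h against 2700 without drug, which is 79.3% (exact 95% Poisson interval 74.9 to 84.0, which covers counting error only). All other genes kept 26.6% (26.5 to 26.7). The share of all net reads that lay in histone genes was 0.670% after DRB and 0.226% without drug, a value that is unchanged when a whole column is rescaled. On log2(value + 1), 11 of 61 histone genes were lower by at least 1, 4 were higher (Hist1h1e, Hist1h4i, Hist1h2ai and Hist1h2bl) and 46 were within that size, with a median of -0.23. Hist1h2bl, with 2 net reads, was above 0 in the 2 h DRB column alone. It passed the filter only through that column, which fixed its call. Of all 8773 genes, 66.1% were lower and 2.20% higher by this rule, with a median of -1.27. No correction for sequencing depth is stated for the table, so the percentages kept rest on equal depth, and the histone value at 2 h is 357% with columns scaled to equal medians and 175% with quantile normalization. The share of reads does not change with a single factor per column. How far library depth entered it, before negative values were set to 0, was not tested.

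**Figure D1:**
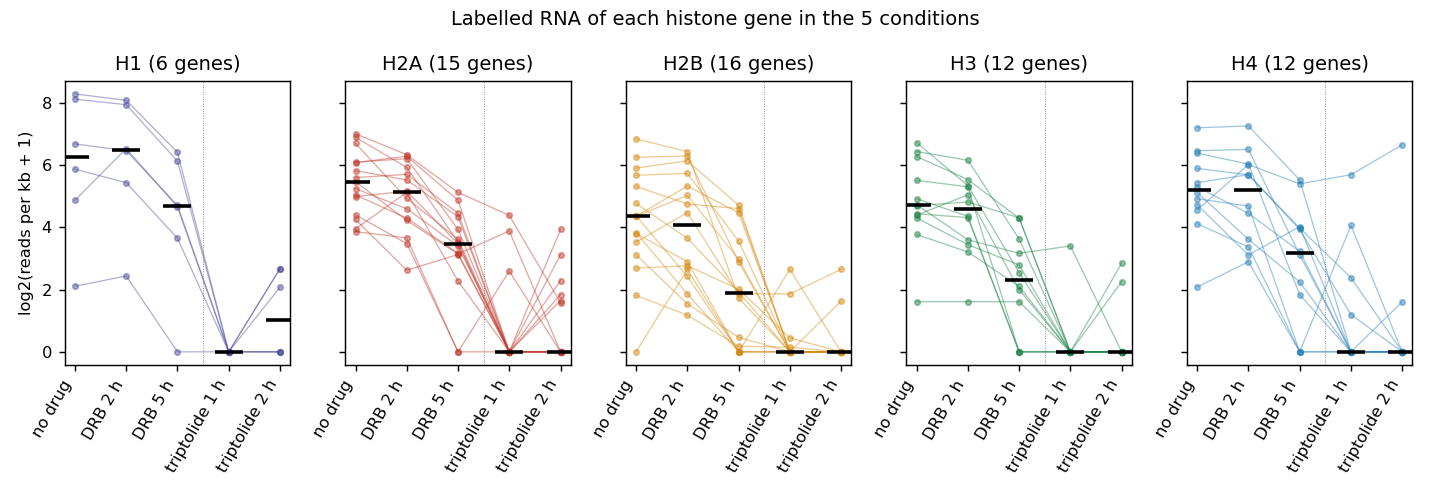
Reads per kilobase of the 61 histone genes with signal, on the log2(value + 1) axis, in each of the 5 conditions and split by histone type. Each line is 1 gene, the black bars are medians over genes, and the dotted line parts the DRB columns from the triptolide columns. Most lines are near level at 2 h of DRB, lower at 5 h and at 0 under triptolide, apart from Hist1h4i in the H4 panel.

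The linker histone genes kept the largest share of the 5 types, with 748 net reads with DRB for 2 h against 834 without drug, 89.7% (81.1 to 99.1). H4 genes kept 84.5% (72.2 to 98.8), H2A genes 79.0% (69.3 to 90.1), H2B genes 71.1% (62.8 to 80.4) and H3 genes 65.0% (55.1 to 76.7). The interval of H1 overlaps neither that of H3 nor that of H2B, while each type in this order overlaps the next. The place of H2B rests on its long entries. Without Hist1h2bc, Hist1h2be, Hist2h2bb and Hist2h2be, its members over 2000 bases, H2B genes stood at 106%. The place of H3 rests partly on Hist1h3d, the H3 gene with the most reads after DRB, without which H3 genes kept 79.9%. At 2 h all 5 types lie above 100% under both rescalings, and with quantile normalization H1 is the lowest type, at 145%, beside 171% for H3.

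**Figure D2:**
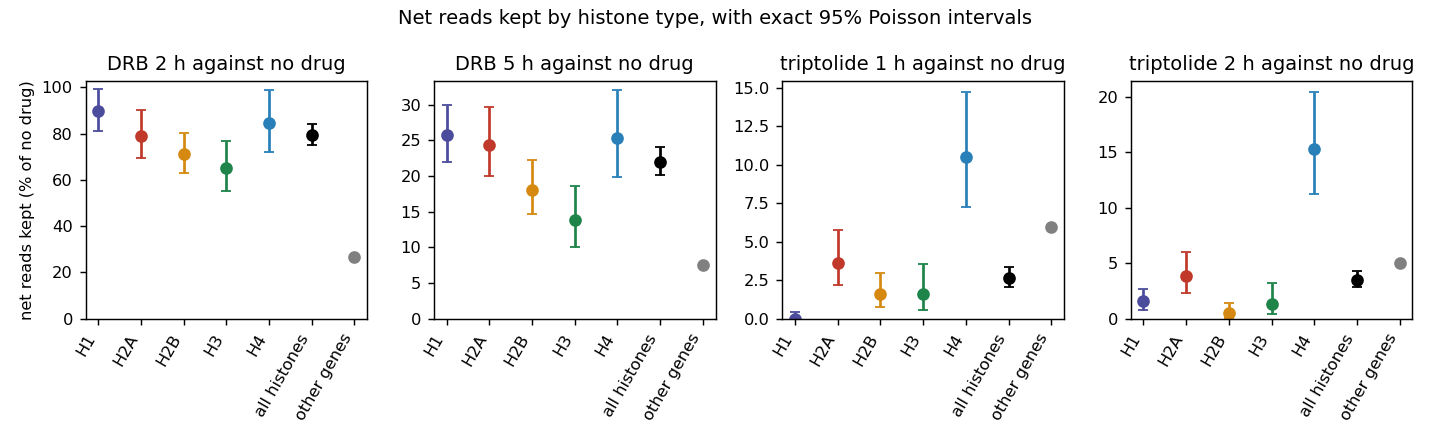
Net reads kept in each drug column as a percent of no drug, for the 5 histone types, all histone genes and all other genes, with exact 95% Poisson intervals (those of the other genes are narrower than their marker). The vertical axes differ between panels. All types lie above the other genes in the DRB panels, and in the triptolide panels H4 alone lies above them.

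Hist1h1b, the linker histone gene with the most signal, was at 309 reads per kb without drug, 268 and 83.6 with DRB for 2 h and 5 h, and listed at 0 with triptolide for 1 h and 2 h. Hist1h1a was at 275, 243 and 68.4 reads per kb over the same DRB series and at 0 and 5.36 with triptolide for 1 h and 2 h. Both genes were the highest of all genes in both DRB columns, with Hist1h1b at rank 1 and Hist1h1a at rank 2. At 2 h of DRB Hist1h1b kept 86.9% (71.5 to 106) of its net reads and Hist1h1a 88.3% (71.9 to 108). Hist1h1c (chr13:23738808-23740367) followed with 101 reads per kb without drug, 86.6 and 25.0 with DRB for 2 h and 5 h, and 85.4% (67.4 to 108) at 2 h.

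Hist1h1e (chr13:23620629-23622558), the fifth somatic linker gene here, went the other way. It was at 28.1 reads per kb without drug, 91.0 and 24.1 with DRB for 2 h and 5 h, and at 0 and 5.35 with triptolide for 1 h and 2 h. Its 68 net reads with DRB for 2 h against 21 without drug make 324% (196 to 556), the highest value among the 37 histone genes with at least 20 net reads without drug. The entry for Hist1h2be, of 37382 bases, overlaps the GENCODE M21 span of Hist1h1e on the same strand by 496 bases. The counted length of Hist1h1e, 747 bases, is shorter than that span. Its counted bases may therefore lie outside the overlap. Hist1h2be had 47 net reads with DRB for 2 h against 94 without drug, and how reads in the overlap were assigned was not tested.

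Among the H2A genes, Hist1h2ab (chr13:23751126-23751598) was at 127 reads per kb without drug, 79.2 and 33.7 with DRB for 2 h and 5 h, and 19.8 and 1.98 with triptolide for 1 h and 2 h. Hist1h2ad was at 117, 59.5 and 10.5 over the DRB series and at 0 in both triptolide columns. Hist2h2ab (chr3:96219865-96220308) was at 102, 29.3 and 11.3 over the DRB series and at 0 under triptolide. These 3, the H2A genes with the most signal, were all lower with DRB for 2 h than without drug, with Hist1h2ab at 62.5% (41.0 to 94.2), Hist1h2ad at 50.7% (32.6 to 77.8) and Hist2h2ab at 28.9% (14.3 to 54.5). Hist1h2ai stood on the other side with 33.7 reads per kb with DRB for 2 h against 14.4 without drug, 233% (124 to 460). Its counted length of 1040 bases was taken from the step alone and exceeds its annotated span.

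The 3 H2B genes with the most signal differed less at 2 h than at 5 h. Hist1h2bh was at 113 reads per kb without drug, 85.1 and 2.30 with DRB for 2 h and 5 h. Hist1h2bb was at 74.8, 76.9 and 6.41, and Hist1h2bk (chr13:22035870-22036345) at 58.6, 69.0 and 25.1 over the same series. At 2 h they kept 75.5% (47.9 to 118), 103% (62.8 to 169) and 118% (69.1 to 202), in that order, and all 3 intervals hold 100%. Hist1h2bl had no net read without drug and 2 with DRB for 2 h (5.26 reads per kb), the only member of the 61 at 0 without drug. The lowest value among genes with at least 20 net reads was that of Hist2h2be, with 1.91 reads per kb with DRB for 2 h against 7.64 without drug, 25.0% (7.33 to 68.6).

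Hist1h3d (chr13:23575763-23577011) led the H3 genes, at 104 reads per kb without drug, 39.3 and 4.81 with DRB for 2 h and 5 h, and 0 under triptolide. Its 49 net reads after 2 h against 130 without drug make 37.7% (26.6 to 52.7). Hist1h3g was at 85.1, 69.9 and 11.3 reads per kb over the DRB series, and Hist1h3h at 76.0, 45.2 and 18.5. They kept 82.2% (51.7 to 130) and 59.5% (33.4 to 103) at 2 h, and of these 3 intervals that of Hist1h3d alone lies below 100%. Hist1h4b was at 145, 151 and 44.9 over the DRB series, Hist1h4d at 86.7, 89.3 and 7.65, and Hist1h4f at 82.1, 64.1 and 2.56. These 3 H4 genes held 104% (74.2 to 146), 103% (62.4 to 170) and 78.1% (44.4 to 136) of their net reads at 2 h, with all 3 intervals holding 100%.

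**Figure D3:**
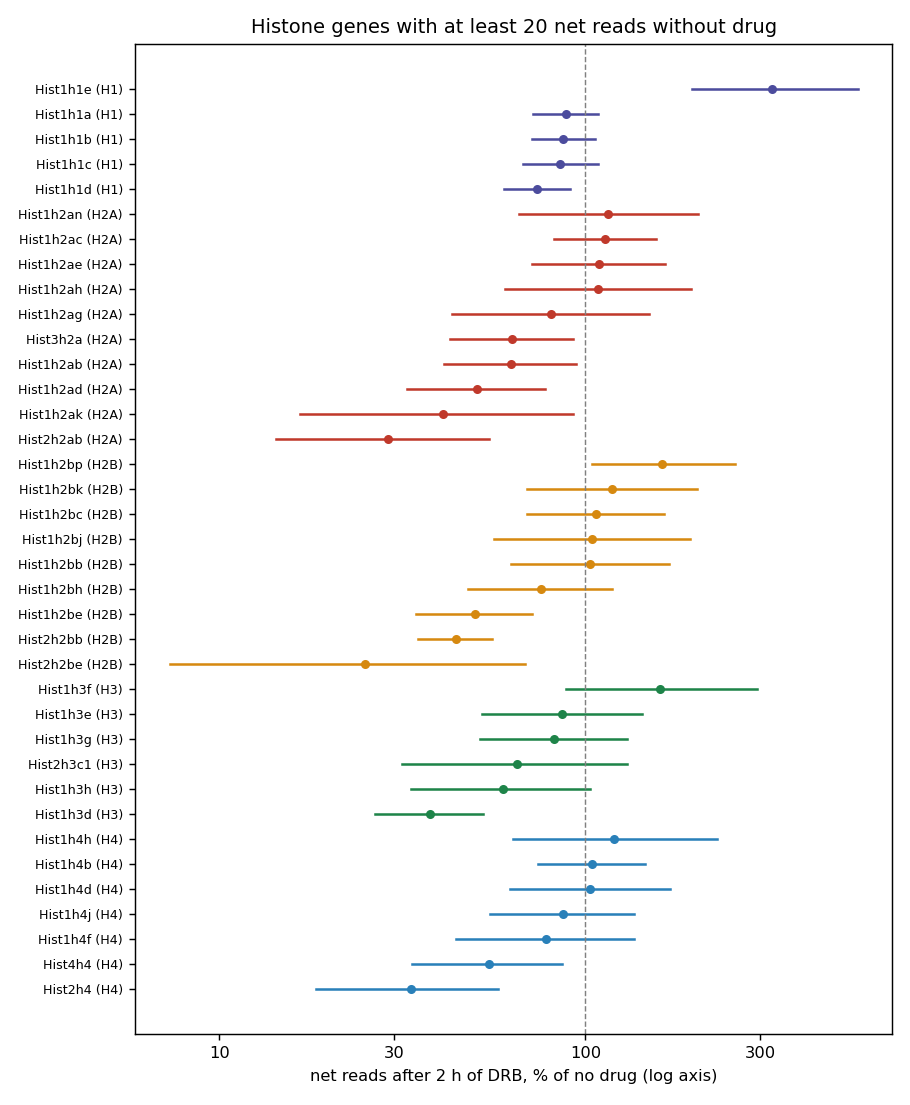
Net reads with DRB for 2 h as a percent of no drug for the 37 histone genes with at least 20 net reads without drug, grouped by type, on a log axis. Lines are exact 95% Poisson intervals and the dashed line is 100%. Most intervals cross 100%, Hist1h1e lies highest at 324% and Hist2h2be lowest at 25.0%.

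Of the 60 genes with signal without drug, 22 were at or above that level with DRB for 2 h. The interval lay wholly below 100% for 12 genes and wholly above it for 4, which are Hist1h1e, Hist1h4i, Hist1h2ai and Hist1h2bp. These 22, 12 and 4 genes have no share of all genes beside them, since the counts were made for histone genes only. The gene cluster went with the value. Hist1 genes kept 87.6% (82.3 to 93.2) of their net reads, Hist3 genes 61.7% (42.5 to 88.9), the Hist4 gene 54.5% (33.7 to 86.6) and Hist2 genes 42.6% (35.5 to 50.9). The interval of Hist2 lies apart from that of Hist1. Of the Hist3 net reads, Hist3h2a held 73 of 81 without drug and 46 of 50 with DRB for 2 h. Its annotated span overlaps that of Trim17, a protein-coding gene on the same strand, by 2146 bases. How reads there were assigned was not tested. The entry named Hist2h2bb holds 242 of the 411 Hist2 net reads without drug, and its identifier is a lincRNA of 9280 bases in GENCODE M21, but without members over 2000 bases the Hist2 value was 42.3%. Within Hist1, the 23 genes between 21715763 and 22043676 on chromosome 13 kept 101% (89.9 to 114), and the 31 genes between 23531050 and 23934851 kept 83.1% (77.2 to 89.4). This split at the wide gap of the cluster was made after the values were seen, and Hist1h2al lies outside both stretches.

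Neighbouring H2A and H2B genes that face away from each other share a start-site region, and there were 12 such pairs with 175 to 305 bases between the genes. In 9 pairs both genes had signal without drug. With DRB for 2 h both genes were at or above the level without drug in 4 pairs, both were below it in 4, and 1 was split. The H2A gene exceeded its H2B partner in reads per kb without drug in 7 of the 9. Hist1h2ah was at 47.2 reads per kb without drug, 50.9 and 20.8 with DRB for 2 h and 5 h, beside 58.6, 69.0 and 25.1 at its partner Hist1h2bk. Hist1h2ad was at 117, 59.5 and 10.5 beside 19.6, 4.35 and 0 at Hist1h2bf, and Hist1h2an was at 66.3, 76.5 and 28.1 beside 19.4, 31.4 and 6.85 at Hist1h2bp. In the pairs of Hist1h2ah and of Hist1h2an both genes were above the level without drug at 2 h, and in that of Hist1h2ad both were below it. In the pair Hist1h2ae and Hist1h2bg the values were 66.9, 72.5 and 14.2 beside 19.4, 38.9 and 21.1 reads per kb, and in Hist1h2ag and Hist1h2bj, the split pair, 55.3, 44.7 and 19.1 beside 49.8, 51.9 and 10.8. Hist1h2ac was at 30.6, 34.7 and 10.1 beside 5.43, 5.79 and 3.02 at Hist1h2bc, whose entry spans 8289 bases. The pairs below their level without drug in both genes also held Hist1h2ak, at 43.0, 17.6 and 7.81 beside 13.2, 2.63 and 0 at Hist1h2bn, and Hist2h2ac, at 13.5, 11.6 and 0 beside 7.64, 1.91 and 0.382 at Hist2h2be.

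With DRB for 5 h histone values were lower still. The histone genes had 595 net reads with DRB for 5 h against 2700 without drug, 22.0% (20.1 to 24.1), where all other genes kept 7.58% (7.52 to 7.63). With equal medians the histone value at 5 h is 2024% and with quantile normalization 178%. By the size rule 52 of 61 histone genes were lower, none was higher and 9 were within, with a median of -1.98, beside 85.5% of all genes lower, 1.03% higher and a median of -1.86. The count of lower histone genes is near the share of all genes, while the reads kept are higher. The histone share of all net reads was 0.654% after 5 h, close to the 0.670% at 2 h. From 2 h to 5 h of DRB the histone genes kept 27.8% (25.3 to 30.4), beside 28.5% (28.3 to 28.7) in all other genes. By the size rule 50 of 61 histone genes were lower and none higher, beside 29.7% of all genes lower and 1.13% higher. The median level over all 8773 genes was already 0.766 reads per kb at 2 h.

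At 5 h H1 was again highest and H3 lowest, at 25.7% (22.0 to 29.9) and 13.8% (10.1 to 18.6), with H4 at 25.4%, H2A at 24.4% and H2B at 18.1%. With quantile normalization this order turns, with H1 at 137% and H3 at 142%. Hist1h1b kept 27.1% (20.1 to 36.0), Hist1h4b 31.0% (18.3 to 50.6) and Hist1h2ab 26.6% (14.6 to 45.9). Hist1h2bh kept 2.04% (0.0506 to 11.9), from 1 net read against 49, and Hist1h3d 4.62% (1.66 to 10.3). Hist1h3e, with 44.3 reads per kb without drug and 38.3 with DRB for 2 h, was listed at 0 after 5 h. Among the 37 genes with at least 20 net reads without drug, Hist1h1e had the highest value at 85.7% (43.1 to 169). Hist1h3d and Hist1h2bh stood below Hist1h1b, Hist1h4b and Hist1h2ab with intervals that do not overlap.

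Little histone signal was listed with triptolide at either time. The histone genes had 72 and 95 net reads with triptolide for 1 h and 2 h against 2700 without drug, 2.67% (2.08 to 3.37) and 3.52% (2.84 to 4.32), where all other genes kept 5.93% and 5.02%. With quantile normalization the histone values are 41.0% and 44.6%, and with equal medians the value at 2 h is 807%. After 1 h, 58 of 61 were lower by the size rule and 1 was higher, beside 87.9% and 0.787% of all genes, and after 2 h 57 were lower and 2 higher, beside 87.0% and 0.866%. Signal above 0 was listed for 12 of the 61 genes after 1 h and 15 after 2 h, with 3 genes in both. Of all 68 histone genes 56 and 53 were listed at 0 after 1 h and 2 h, beside 14575 and 13367 of all 22556 genes. The histone share of all net reads was 0.102% and 0.158% with triptolide for 1 h and 2 h, below the 0.226% without drug. H1 genes had no net read after 1 h against 834 without drug, and 13 net reads after 2 h. Since negative values were set to 0, a listed 0 need not be a count of 0 reads, so no upper limit is drawn. Between the 2 times, 8 genes were lower and 12 higher after 2 h than after 1 h, beside 3.03% and 3.35% of all genes.

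Hist1h4i (chr13:22040636-22041362), an H4 gene, was the 1 histone gene above its level without drug in all 4 drug columns. It was at 22.4 reads per kb without drug, 63.4 and 41.0 with DRB for 2 h and 5 h, and 50.4 and 98.9 with triptolide for 1 h and 2 h. In net reads these are 12, 34, 22, 27 and 53. Its ratios to no drug were 283% (143 to 601) and 183% (86.9 to 406) at 2 h and 5 h of DRB, and 225% (110 to 488) and 442% (233 to 908) at 1 h and 2 h of triptolide. The interval at 5 h of DRB holds 100%. It was at rank 479 of all genes without drug, and with triptolide at rank 2 after 1 h and rank 1 after 2 h. It held 27 of the 37 net reads of H4 genes after 1 h and 53 of 54 after 2 h, so that H4 genes without it kept 2.92% and 0.292%, and all histone genes without it 1.67% and 1.56%. Of its 30-base words 33.8% occurred in another member, and its length came from the step alone.

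Few other histone genes kept reads under triptolide. Among genes with at least 20 net reads without drug, the highest were Hist1h2ak after 1 h, at 13.7 reads per kb against 43.0 without drug, 31.8% (11.5 to 77.1), and Hist1h2ae after 2 h, at 14.2 against 66.9, 21.3% (9.59 to 42.7). Each was at 0 at the other triptolide time. Hist2h3b, also higher by the size rule after 2 h, rested on 3 net reads against 1. Set beside each other at 2 h, DRB left 2141 histone net reads and triptolide 95, with 58 of 61 genes higher under DRB and 1, Hist2h3b, lower, beside 33.2% and 1.04% of all genes. The 4 comparisons with no drug share that column, so their values are not independent.

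The testis-type members differed in level. Hist1h1t, the testis linker gene, was at 3.30 reads per kb without drug, 4.41 and 0 with DRB for 2 h and 5 h. Hist1h2aa was at 18.0, 5.14 and 7.71 and its divergent partner Hist1h2ba, the testis H2B gene, at 38.7, 25.8 and 23.2 over the same series, from at most 15 net reads each.

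At 2 h of DRB the histone genes kept a larger percentage of reads than the genes that serve them. It was near that of other very short genes, which had few reads. The 45 histone genes with a counted length under 1 kb kept 88.6% (82.1 to 95.7), and the 16 longer ones 68.9% (63.1 to 75.1). Other genes with an annotated span under 1 kb kept 80.5% (71.7 to 90.3) of 666 net reads. Of the 193 that passed, 75 were lower and 53 higher, beside 66.1% and 2.20% of all genes. This class of 838 genes lies near the floor, with 733 listed at 0 without drug, and a single net read can pass so short a gene. Other genes of 1 to 10 kb kept 29.0% and those over 10 kb 26.2%. Under triptolide other genes under 1 kb kept 26.3% (22.1 to 31.1) after 1 h and 29.6% (25.1 to 34.7) after 2 h. These rest on 175 and 197 net reads spread over many genes. Short histone genes kept 4.56% (3.50 to 5.85) and 6.04% (4.80 to 7.51). The part of gene length in the DRB values was not tested further.

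**Figure D4:**
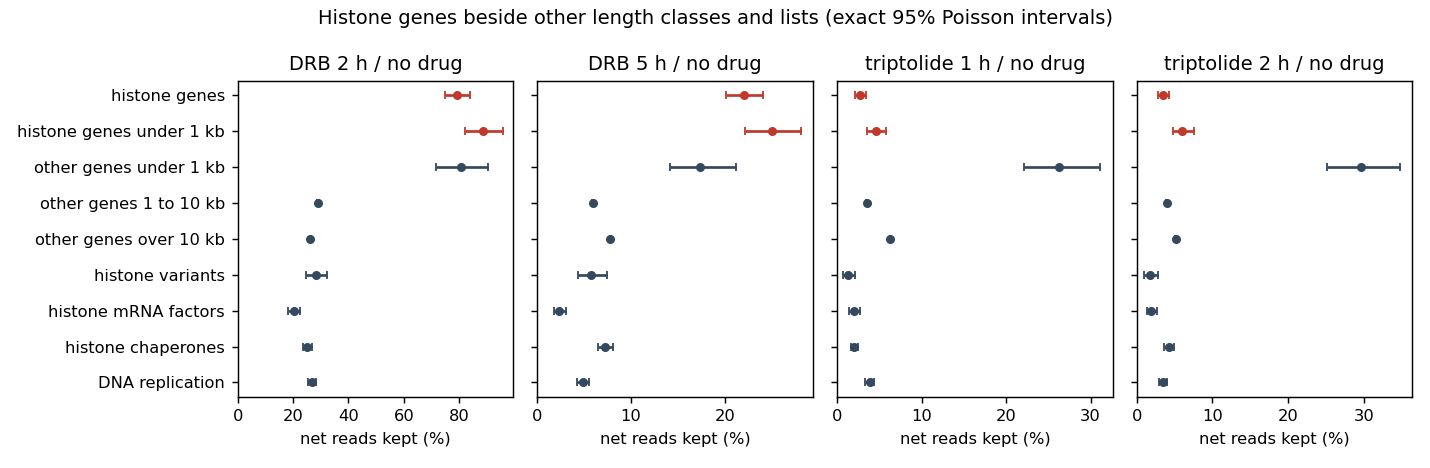
Net reads kept in each drug column as a percent of no drug for histone genes (red) and for other genes by annotated span and for 4 gene lists (blue), with exact 95% Poisson intervals. The horizontal axes differ between panels. At 2 h of DRB all histone genes lie at 79.3%, those under 1 kb at 88.6% and other genes under 1 kb at 80.5%, and the 6 other classes and lists plotted lie between 20.2% and 29.0%, and under triptolide the other short genes lie apart from the histone genes.

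Genes for histone mRNA factors, such as the stem-loop binding protein and the S-phase cyclin E and Cdk2, kept 20.2% (18.2 to 22.4) at 2 h of DRB, with 15 of 20 lower and none higher, near the 66.1% of all genes that were lower. Slbp was at 2.72 reads per kb with DRB for 2 h against 13.8 without drug, and Npat at 0.295 against 1.21. The 4 largest differences were those of Cdk2, at 0.562 against 9.14, Lsm10, a U7 snRNP protein gene listed at 0 against 5.10, Ccne1, at 3.46 against 24.6, and Sympk, a processing scaffold, at 0.430 against 6.35. Histone chaperone genes kept 25.1% (23.5 to 26.8), with 14 of 20 lower, also near that share, and Asf1a was listed at 0 against 8.24 and Nasp at 3.38 against 22.5. DNA replication genes, read in the same phase of the cycle, kept 26.8% (25.3 to 28.4), with 21 of 28 lower beside the same 66.1%, and Pcna was at 3.85 against 34.7 and Fen1 at 0.993 against 17.3. The intervals of the chaperone and replication lists hold the 26.6% of all other genes, and that of the histone mRNA factors lies below it.

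Genes for replication-independent histones, which carry introns or poly(A) tails, kept 28.1% (24.6 to 32.1) at 2 h of DRB, with 7 of the 10 that passed lower and 1 higher, beside 66.1% and 2.20% of all genes. H3f3a, for H3.3, was at 1.37 reads per kb with DRB for 2 h against 13.3 without drug, and H2afz, for H2A.Z, at 8.21 against 29.2. Cenpa, the centromeric H3, was at 2.11 against 21.6. The variants were not alike, since H3f3b, the other H3.3 gene, stood at 13.4 with DRB and 14 without, and at 4.13 after 5 h. H1fx, the variant that was higher, was at 12.3 with DRB against 2.83 without, and H2afx, a core histone variant of the DNA damage response, at 55.3 against 80.4. These last were named after their values were seen.

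Markers of the labelled cell type were present, since all 8 embryonic stem cell genes passed the filter with 4074 net reads without drug, although Dppa5a was at 0 there. This list kept 65.7% (62.5 to 69.0) with DRB for 2 h and 4.84% (4.17 to 5.58) after 5 h. Esrrb held 2007 of its 2675 net reads with DRB for 2 h and 2516 of its 4074 without drug, while Pou5f1 kept 17.9% and Nanog 26.6%. Of 8 fibroblast genes 1 passed, with 4 net reads over the list without drug, and of 6 primitive endoderm genes none did, with 15. Neural genes had 316 net reads without drug, with 4 of 6 passing. All genes together had 1196342 net reads without drug, 319477 and 91025 with DRB for 2 h and 5 h, and 70816 and 60069 with triptolide for 1 h and 2 h.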

How the data were processed

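Newly labelled RNA was measured in mouse E14-WT embryonic stem cells, in 20 samples of which 10 were labelled and 10 unlabelled. Bowtie and the build GRCm38/mm10 are named in the submitters' processing notes, and gene identifiers are those of Ensembl 72, per the file headers. The deposited signal is reads per kilobase, and the authors set negatives to 0, per the file headers. The sources used here do not state how replicates and unlabelled libraries were combined, each library's depth, or strand use.

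Gene lengths were recovered from the steps between a gene's 5 values and compared with GENCODE M21 spans and, for histone genes, also RefSeq spans. Net reads are value times length. By construction these are whole numbers within 0.01 reads. Recovery was tested on simulated data with the rule used for other genes, which allows multiples of the step. The rule used for histone genes was not tested in this way. Ratios of net reads carry exact (Clopper-Pearson) 95% intervals, which leave out replicate spread and background subtraction. Genes were compared on log2(value + 1) if above 1 in at least 1 condition, with a size rule of 1. The filter leaves 8773 genes. The planned limma fit needs replicate columns and was not run. Motifs were searched on both strands of RefSeq promoters and the stem-loop in GENCODE M21 transcripts. Named genes were the 3 highest of each type without drug, the highest and lowest percent kept in each drug column among those with at least 20 net reads, those higher by the size rule, divergent pairs, testis-type members and, from the other lists, up to 4 by size of difference with Npat, Slbp, H2afz, H3f3a and H3f3b. Of the pairs and lists, examples are given. Members and lists were chosen with earlier results of these data known. Python 3.11.15 with numpy 2.4.6, pandas 2.3.3 and scipy 1.17.1 was used.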

Additional observations from a re-analysis of the deposited data

How the results depend on the processing

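No paired analysis was possible because the table has 1 column per condition, and for the same reason no replicate could be left out. The scale of the columns decides whether histone values lie below or above no drug, but not the share of reads in histone genes. The ratio of histone to other genes is fixed under any single factor per column. Equal medians multiplied the 2 h DRB column by 4.50, the 5 h DRB column by 91.9 and the 2 h triptolide column by 229, and could not be had for 1 h of triptolide, whose median is 0. Counts over all genes and the other lists are not repeated for each setting. The counts of histone genes below therefore have no background share beside them and show no histone trait by themselves.

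With equal medians the histone genes stood at 357% with DRB for 2 h, with 403% for H1, 355% for H2A, 320% for H2B, 292% for H3 and 380% for H4. By cluster they stood at 394% for Hist1, 191% for Hist2, 278% for Hist3 and 245% for Hist4. With DRB for 5 h they stood at 2024%, with 2357% for H1, 2243% for H2A, 1666% for H2B, 1270% for H3 and 2335% for H4, and by cluster at 2189% for Hist1, 1140% for Hist2, 2155% for Hist3 and 2004% for Hist4. With triptolide for 2 h they stood at 807%, with 358% for H1, 882% for H2A, 110% for H2B, 311% for H3 and 3500% for H4, and Hist1 at 980% and Hist2 at 167%. By the size rule 0 histone genes were then lower and 49 higher with DRB for 2 h, 12 lower and 47 higher after 5 h, and 15 higher with triptolide for 2 h. Among single genes, Hist1h2ab stood at 281%, Hist1h2ad stood at 228%, Hist1h3d stood at 169%, Hist2h2ab stood at 130% and Hist2h2be stood at 112% with DRB for 2 h. Hist1h1b stood at 2487%, Hist1h2ab stood at 2440%, Hist1h2bh stood at 187%, Hist1h3d stood at 424% and Hist1h4b stood at 2846% with DRB for 5 h. Hist1h2ae stood at 4881% with triptolide for 2 h.

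With quantile normalization the histone genes stood at 175% with DRB for 2 h, with 145% for H1, 195% for H2A, 205% for H2B, 171% for H3 and 197% for H4, and by cluster at 184% for Hist1, 123% for Hist2, 173% for Hist3 and 152% for Hist4. After 5 h they stood at 178%, with 137% for H1, 221% for H2A, 218% for H2B, 142% for H3 and 219% for H4, and by cluster at 178% for Hist1, 154% for Hist2, 247% for Hist3 and 244% for Hist4. With triptolide for 1 h they stood at 41%, with 1.13% for H1, 55.7% for H2A, 63.5% for H2B, 33.4% for H3 and 118% for H4, and after 2 h at 44.6%, with 28.5% for H1, 75.4% for H2A, 26.1% for H2B, 36.3% for H3 and 90% for H4. 0 genes were lower and 29 higher with DRB for 2 h, 12 lower and 28 higher after 5 h, and 8 and 9 higher with triptolide for 1 h and 2 h. Among single genes, Hist1h2ab stood at 127% and Hist1h2ad stood at 113% with DRB for 2 h. Hist1h2ab stood at 191% and Hist1h4b stood at 202% with DRB for 5 h. Hist1h2ak stood at 486% with triptolide for 1 h. Hist1h2ae stood at 322% with triptolide for 2 h.

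The choice of members moved the DRB values less. Restricting to genes whose length is an annotated span gave the histone genes 73.6% and 19% with DRB for 2 h and 5 h and 0.733% and 1.76% with triptolide for 1 h and 2 h. Genes with a stem-loop kept 91% with DRB for 2 h and 4.33% with triptolide for 1 h. Summing reads per kb gave 84.8% with DRB for 2 h, 4.16% and 5.34% with triptolide for 1 h and 2 h, and for H2B 93.2% after 2 h and 22.2% with DRB for 5 h and 1.56% with triptolide for 2 h. Leaving out members over 2000 bases, chosen after seeing the data, gave 84.1% with DRB for 2 h, 4.74% with triptolide for 2 h, and for H2B 106% and 25.2% with DRB for 2 h and 5 h. Without Hist1h4i, also chosen after seeing the data, H4 kept 19.9% with DRB for 5 h and 2.92% and 0.292% under triptolide, and all histone genes 1.67% and 1.56%. Without the gene with most reads in the drug column, H2B kept 88.2% and H3 79.9% with DRB for 2 h, H2B 22.8% after 5 h, H2A 1.97% and H3 0% with triptolide for 1 h, and H2A 2.11% after 2 h; for H4 and for all histone genes under triptolide that gene is Hist1h4i. A pseudocount of 10 gave 5 lower and 2 higher with DRB for 2 h and 0 and 1 higher with triptolide for 1 h and 2 h. A filter of 20 net reads gave 6 lower with DRB for 2 h and 1 higher with triptolide for 2 h. The cause of these moves was not tested.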
